A study of Saccharomyces cerevisiae with 6 samples.

Results

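The orc2-I194E replication profile at 30 min was read from 2 of the 6 whole-genome sequencing libraries of a budding yeast study: the S-phase library and the G1 library that carry this label. The members of the profile are bins of 1 kb of the nuclear genome, and 11284 of the 11579 listed bins (97.5%) were kept. Bins of the mitochondrial genome and of the rDNA array (451001 to 490000 on chromosome XII) were left out, as were bins whose G1 count was under 0.3 or over 3 times the median of the library. Positions are those of sacCer3.

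The strain of the profile was orc2-I194E, in which 1 of the 620 residues of Orc2, the isoleucine named by the allele, is changed to glutamate (genotype Orc2194E in the labels). It was set beside orc2ΔN200, which lacks the first 200 residues (Orc2DeltaN200), and beside WT, which has full-length Orc2. All 3 strains were W303-1a, a standard haploid laboratory strain, and all went through the same regimen. They were grown in YPG and held in G1 with α-factor, then moved to YPD with nocodazole, where they stopped at G2/M and a second form of Orc2, orc2-1, was depleted. They were held in G1 with α-factor again and sampled at 0 min and at 30 min after its removal, with azide added at harvest to stop elongation. The sources used here do not say how much orc2-1 was left, or whether each strain was a single clone. There was 1 library per label and time, so no difference has a replicate check and no test across samples was possible.

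Replication in budding yeast starts at origins, DNA sites that are bound by the 6-subunit origin recognition complex. In G1 this complex, of which Orc2 is a subunit, loads the MCM helicase onto DNA, a step called licensing, and a part of the licensed origins fires in S phase. The N-terminal stretch of Orc2, where the changed residue lies, has no fixed fold and is the part the study altered. DNA near an origin that fires early reaches its second copy before the DNA around it. In wild-type cells centromeric origins are known to fire early and most origins near telomeres late.

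The measure used throughout is the log2 of a bin's share of counts in S over its share in G1. A value of 0 is the genome mean of that ratio, so positive values mark DNA that had gained copies relative to the rest of the genome and negative values DNA that lagged behind it. It does not give the total amount of DNA synthesised. The S library held 3235720 counts and the G1 library 3376203, the lowest and the highest total of the 6 libraries, with a median of 255 and 270 counts per kept bin. Because the S library was smaller, equal counts in both correspond to a log2 ratio of 0.067. Intervals are 95% intervals and cover counting error only, as molecules were not tagged and cultures were not repeated.

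The label was checked first at ORC2 itself (YBR060C, chromosome II, 360652 to 362514, on the Crick strand), and the libraries labelled orc2-I194E did not keep a constant copy level there. The codon for this residue, at 361933 to 361935, lies in the bin from 361001 to 362000, although a base change cannot be seen in bin counts. This bin held 616 counts in the S library labelled orc2-I194E and 476 in its G1 library. Relative to the bins within 20 kb, that is 2.67 (2.46 to 2.89) in S and 1.75 (1.60 to 1.92) in G1. The libraries labelled orc2ΔN200 stood at 1.84 in S and 1.69 in G1, and those labelled WT at 1.81 (1.64 to 2.00) in S and 2.63 (2.44 to 2.84) in G1.

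In this bin extra ORC2 DNA was thus present under all 3 labels, and its amount crossed between 2 of them. The bin from 362001, which holds the N-terminal start of the gene, stood at 1.97 in S and 1.38 in G1 under orc2-I194E and at 1.66 and 2.06 under WT. Under orc2ΔN200 it stood at 0.927 and 0.909, with no extra DNA in the stretch that this label lacks. The S library labelled orc2-I194E had the level of the G1 library labelled WT, and the G1 library labelled orc2-I194E had the level of the S library labelled WT. The same crossing was seen at LEU2, a gene of leucine synthesis and a common selection marker, which lies at 91324 to 92418 on chromosome III (YCL018W). Its bin stood at 2.45 in S and 1.64 in G1 under orc2-I194E, at 1.72 and 1.83 under orc2ΔN200, and at 1.76 and 2.60 under WT. The log2 ratio of S to G1 at the ORC2 bin was 0.44 (0.26 to 0.61) under orc2-I194E, -0.0099 under orc2ΔN200 and -0.80 under WT.

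**Figure D1:**
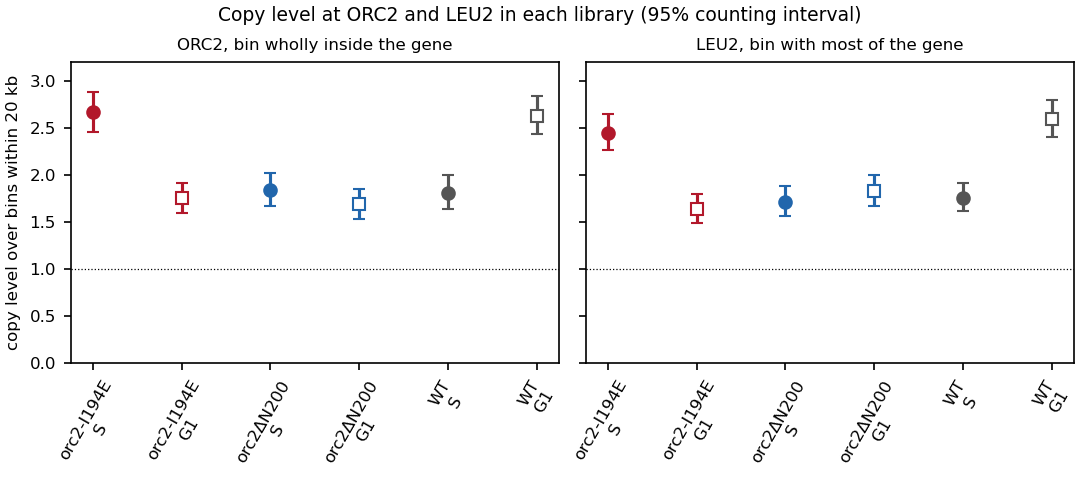
Copy level (counts of a bin over the mean of bins within 20 kb, no unit) at the ORC2 bin from 361001 and the LEU2 bin from 91001 in each of the 6 libraries; filled circles are S libraries, open squares G1 libraries, bars 95% Poisson intervals. The S library labelled orc2-I194E (2.67 at ORC2) stands with the G1 library labelled WT (2.63), and the G1 library labelled orc2-I194E (1.75) with the S library labelled WT (1.81).

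Which of these libraries departs from its label cannot be told apart with bin counts. The name orc2-I194E below therefore means the libraries so labelled. The main results are given in 2 further forms: with the S labels exchanged (the S library labelled WT over the G1 library labelled orc2-I194E) and with those of G1 exchanged (the S library labelled orc2-I194E over the G1 library labelled WT). Leaving out the ORC2 and LEU2 bins changed the counts below by at most 2 bins of 1 kb and no hill or valley.

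By 30 min the orc2-I194E profile was made of a limited number of broad, well separated hills and of raised chromosome ends, above a wide and shallow floor. On a running mean of 5 kb, 1063 bins (9.39% of those with a value) stood above 0.2 and 596 (5.26%) below -0.2. Under orc2ΔN200 these were 844 bins (7.45%) and 460 (4.06%), and under WT 991 (8.75%) and 1538 (13.6%). The G1 library of orc2-I194E over that of WT, a ratio without replication, had 15 such bins (0.132%) above 0.2 and 47 (0.415%) below -0.2, and over that of orc2ΔN200 it had 18 (0.159%) and 21 (0.185%). With the S labels exchanged there were 1049 bins (9.26%) above 0.2 and 1590 (14.0%) below -0.2, and with the G1 labels exchanged 935 (8.26%) and 459 (4.05%).

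The bins were not spread evenly around the mean. The highest 5% of orc2-I194E bins lay above 0.26 and the lowest 5% below -0.20, and the skewness was 0.64. Under orc2ΔN200 these limits were 0.23 and -0.19 and the skewness 0.47, and under WT they were 0.23 and -0.33 and the skewness -0.56, so that the long tail lay on the low side there. With the G1 labels exchanged the skewness was 0.59, and with the S labels exchanged it was -0.56. On a running mean of 21 kb the profile spanned -0.26 to 0.48, which is 0.836 to 1.39 times the genome mean, a ratio of 1.66 between the DNA that had gained most and least. With the G1 labels exchanged the highest mean was 0.38 and this ratio 1.57, and with the S labels exchanged they were 0.40 and 1.91.

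Over the 21-kb running mean the orc2-I194E profile correlated with that of orc2ΔN200 at r = 0.88 and with that of WT at r = 0.44. Each pair was taken over all bins with a value, no libraries were shared, and neighbouring bins are not independent. These correlations are a description with no test.

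**Figure D2:**
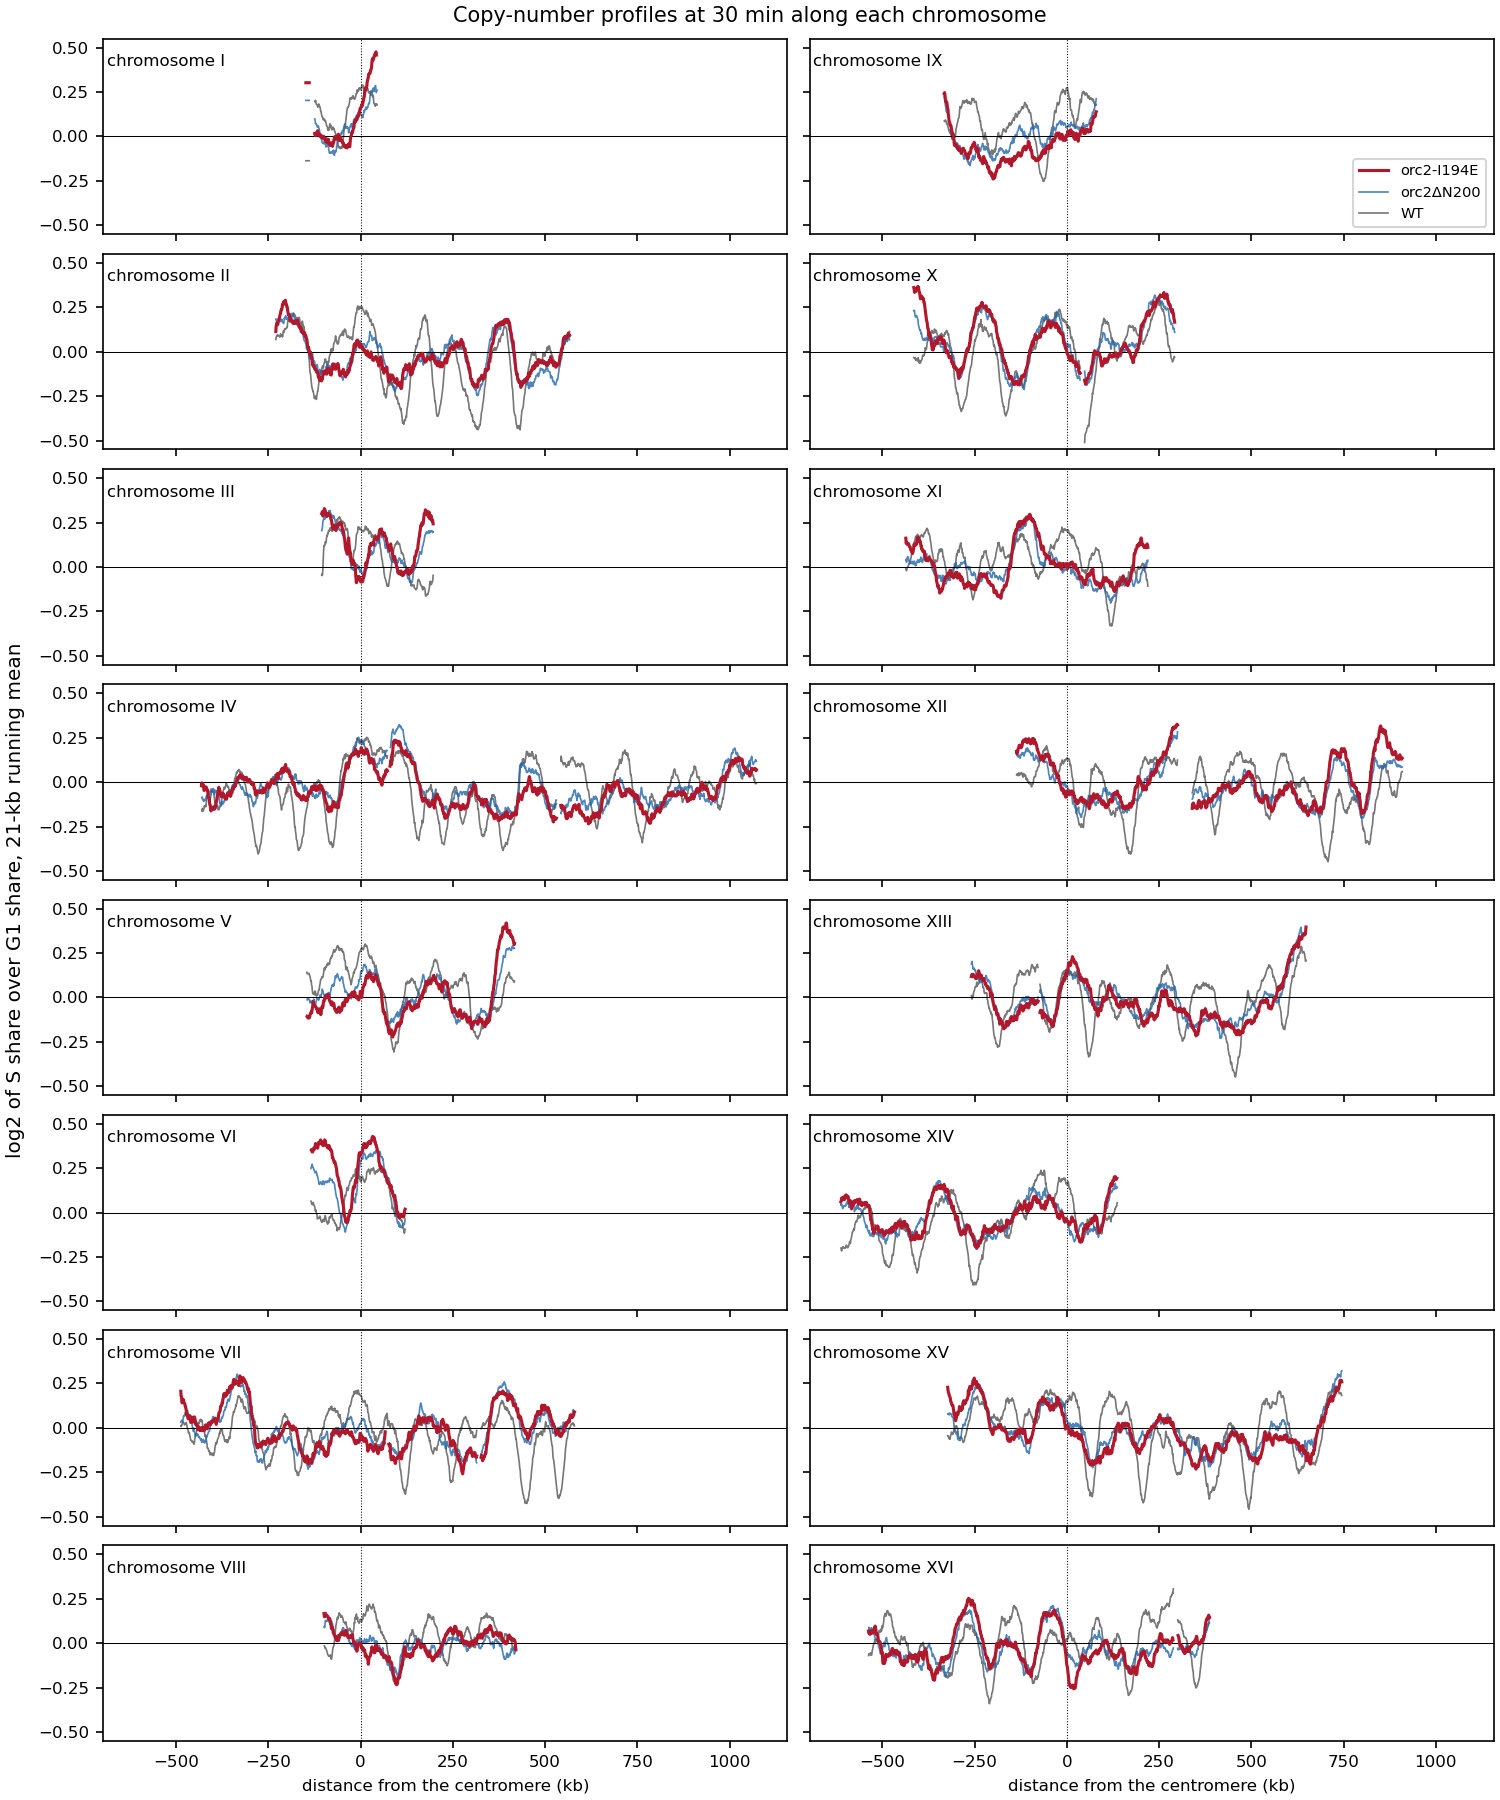
Running mean over 21 kb of the log2 ratio of S share to G1 share along each of the 16 chromosomes, against the distance from the centromere in kb (dotted line at 0), under orc2-I194E (thick red), orc2ΔN200 (blue) and WT (grey). The red and blue lines run together over most of the genome, the deep grey valleys are shallow in red, and the red line is highest towards the right end of chromosome I (0.48), on both sides of the centromere of chromosome VI and near the right end of chromosome V.

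Hills were taken as local maxima of the 21-kb running mean that rose by at least 0.2 above the deeper ground on either side (their prominence). There were 30 in the orc2-I194E profile, on 13 of the 16 chromosomes, and none on chromosomes I, VIII and IX. By the same rule orc2ΔN200 had 34 and WT 72, and ratios of G1 libraries had 2 and 3. With the S labels exchanged there were 67 hills, and with the G1 labels exchanged 32. Neighbouring hills of orc2-I194E on a chromosome lay a median of 233 kb apart, against 202 kb under orc2ΔN200 and 132.5 kb under WT, and their median width was 75.3 kb, against 68.7 and 59.7 kb. No hill lay within 30 kb of an end, as a maximum must have ground on both sides, and 3 lay within 20 kb of a centromere. A fixed prominence passes fewer hills in a flatter profile, so the hill counts do not compare numbers of origins.

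Genes are named here as landmarks at the summit, and the counts are of DNA, not of transcripts. The highest hill stood over IGD1 (YFR017C), an inhibitor of glycogen debranching, at 182001 on chromosome VI. The 21 bins around its summit held 6655 counts in S and 5183 in G1, a log2 ratio of 0.43 (0.37 to 0.48), or 1.34 times the genome mean. It lay 33.4 kb from the centromere and 88.5 kb from the right end. The same window had 0.33 under orc2ΔN200 and 0.25 under WT. It had 0.32 with the S labels exchanged and 0.36 with the G1 labels exchanged.

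The second hill, beside the tRNA gene YNCL0009C at 449001 on chromosome XII, was the edge of the rDNA array, which was masked, so its 12 bins lay on the left side of the array. They held 3942 counts in S and 3296 in G1 (0.32, 0.26 to 0.39), with 0.25 under orc2ΔN200 and 0.10 under WT. The masked array itself moved the same way, with 22989 counts in S and 19520 in G1, a log2 ratio of 0.30 (0.28 to 0.33), against 0.26 under orc2ΔN200 and -0.067 under WT. The array is repeated many times and its number of repeats was not measured separately.

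Hills 3 to 5 lay 99.9 to 327 kb from a centromere. At MDM35, a mitochondrial intermembrane space protein gene (339001 on chromosome XI), there were 6617 counts in S and 5672 in G1, a ratio of 0.29 (0.24 to 0.34). Under orc2ΔN200 the value was 0.26, and under WT it was 0.075. MPT5, which encodes an RNA-binding protein of the Puf family (169001 on chromosome VII), had 6672 and 5711 counts, or 0.29 (0.24 to 0.34), with 0.23 under orc2ΔN200 and 0.17 under WT. ALR1, a magnesium transporter gene (75001 on chromosome XV), had 6754 and 5823 counts, or 0.28 (0.23 to 0.33), with 0.21 under orc2ΔN200 and 0.16 under WT.

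Hills 6 to 15 ranged from 0.27 to 0.18. In falling order their landmarks were MDV1, a mitochondrial fission gene on chromosome X, UME1, a subunit gene of the Rpd3 histone deacetylase complex on chromosome XVI, NRG1, a repressor gene of the glucose response on chromosome IV, and YMR008C-A on chromosome XIII. They were followed by FEN2 (pantothenate uptake, chromosome III), HIP1 (histidine permease, chromosome VII), NTH1 (neutral trehalase, at the centromere of chromosome IV), VAC14 (vacuolar lipid signalling, chromosome XII), SWI1 (a subunit of the SWI/SNF remodelling complex, chromosome XVI) and LDH1 (a lipid droplet hydrolase, chromosome II). NRG1, HIP1 and NTH1 stood lower under orc2-I194E (0.23, 0.20 and 0.19) than under orc2ΔN200 (0.28, 0.24 and 0.23), within counting intervals. NTH1 was also below WT, at 0.24.

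Among these 15 hills, VAC14 alone was on the other side of 0 in WT. Its window, at 895001 on chromosome XII, held 6336 counts in S and 5820 in G1 under orc2-I194E, a ratio of 0.19 (0.14 to 0.24). Under orc2ΔN200 the ratio was 0.097 (0.045 to 0.15), and under WT, with 5336 and 5545 counts, it was -0.10 (-0.15 to -0.045). The WT profile had a small hill there too, but on low ground. With the G1 labels exchanged the window had 0.21, and with the S labels exchanged -0.12.

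Over all 30 hills the median was 0.18 under orc2-I194E, which chose them, 0.14 under orc2ΔN200 and 0.13 under WT, and 26 of the orc2-I194E intervals lay above 0 (26.5% of all 21-kb windows). The other 2 labels share no library with the profile that chose the hills, so their values there are separate measurements. Of the 30, 29 lay above 0 under orc2ΔN200, where 43.4% of all bins did, and 26 under WT, where 52.5% did. A hill of their own lay within 15 kb for 22 (73.3%) under orc2ΔN200, which is 64.7% of its 34 hills, and for 17 (56.7%) under WT, which is 23.6% of its 72. Of all bins, 8.99% lay that close to a hill of orc2ΔN200 and 18.9% to a hill of WT. As labelled, the hills of orc2-I194E were thus mostly hills of orc2ΔN200 and mostly places of high copy number in WT. This overlap was not recomputed with the labels exchanged. WT hills lay at least 65 kb apart, so at most 30 of the 72 could have a counterpart within 15 kb.

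Counting intervals of the orc2-I194E value and the WT value did not overlap at 14 hills. At 12 of them orc2-I194E was higher (23.5% of all 21-kb windows) and at 2 lower (24.2%). The 2 lower ones were UTP20 on chromosome II, 8.97 kb from a centromere, with 0.062 under orc2-I194E and 0.24 under WT, and GTB1 on chromosome IV with 0.031 and 0.17. These 2, named after their values were seen, were among the lowest hills. No interval separated orc2-I194E from orc2ΔN200 at any hill (3.38% of windows were above and 2.19% below). Choosing hills on orc2-I194E raises its values there, so the 12 are a description.

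The values at the limit of the rule were RRB1 (prominence 0.20) and CQD2 (0.21) just inside, with 21-kb means of 0.042 and 0.060, and NUM1 and ATG11 (both 0.19) just outside, with -0.011 and 0.017. As a rough look at how choice as a maximum raises a hill's height, hills were called on even-numbered bins alone and measured on the odd-numbered ones. The 40 hills so called had a median of 0.16 on even bins and 0.086 on odd bins, and 30 of them were above 0 on odd bins. The same step on 49 valleys gave -0.20 on even bins and -0.13 on odd bins, with 45 below 0. These calls rest on fewer bins per window and are not the 30 hills and 41 valleys reported here. The drop therefore does not measure how much of the height of the reported ones came from choice.

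Valleys, the mirror image of hills, numbered 41 under orc2-I194E, 42 under orc2ΔN200 and 72 under WT. All 16 chromosomes had at least 1, and 38 of the 41 intervals lay below 0 (40.8% of all 21-kb windows). The choice of valleys as minima of this profile favours that side. The deepest by the running mean, over BTN2, a protein sorting gene at 773001 on chromosome VII, held 4612 counts in S and 5762 in G1, a ratio of -0.25 (-0.31 to -0.20). HAA1, a transcription factor gene of the weak acid response at 574001 on chromosome XVI, held 4780 and 5983 counts, or -0.26 (-0.31 to -0.20). COX5B, a cytochrome c oxidase subunit gene at 155001 on chromosome IX, held 4611 and 5701 counts, or -0.24 (-0.30 to -0.18).

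In WT the intervals put these 3 windows higher, with 0.026 at BTN2, 0.026 at HAA1 and -0.092 at COX5B. Under orc2ΔN200 the values were -0.19 at BTN2, whose interval overlaps that of orc2-I194E, -0.094 at HAA1 and -0.13 at COX5B. With the S labels exchanged BTN2 had -0.068, HAA1 0.027 and COX5B -0.14, and with the G1 labels exchanged they had -0.16, -0.26 and -0.20. HAA1 lies 18.1 kb from the centromere of chromosome XVI. The valleys ranked 4 to 10 lay between -0.23 and -0.22, at CFT1 (mRNA 3′ end cleavage, chromosome IV), YHK8 (chromosome VIII), LAS17 (actin assembly, chromosome XV), ARO10 (amino acid breakdown, chromosome IV), MEI4 (meiotic DNA breaks, chromosome V), FPY1 (chromosome XIII) and SCC2 (the cohesin loader, chromosome IV). FPY1 was above the genome mean under WT, with -0.22 (-0.27 to -0.16) under orc2-I194E against 0.069 (0.014 to 0.12). Its value was -0.020 with the S labels exchanged and -0.13 with the G1 labels exchanged.

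The median over the 41 valleys was -0.18 under orc2-I194E and -0.13 under both orc2ΔN200 and WT, and 37 lay below 0 under orc2ΔN200 and 30 under WT. Above 0 were 4 under orc2ΔN200, where 43.4% of all bins were, and 11 under WT, where 52.5% were. Intervals put orc2-I194E below WT at 17 valleys (24.2% of all 21-kb windows) and above it at 8 (23.5%), a share of the 41 close to that of all windows for the 8. Choosing valleys on orc2-I194E lowers its values there, so the 17 are a description. The 8 were EXO1, FAR11, ICS2, YBR225W, GEA1, LHP1, CSF1 and IDS2, named after their values were seen, and they were deep in WT, from -0.28 to -0.46, while orc2-I194E had -0.15 to -0.21 there. The lowest of them in WT was GEA1 on chromosome X, with 3239 counts in S and 3845 in G1 under orc2-I194E (-0.18), against -0.46 under WT. At 5 valleys, HAA1, COX5B, LAS17, MRN1 and FUN30, orc2-I194E was below orc2ΔN200 (2.19% of windows), the side that the choice of valleys favours, and at none above it (3.38%).

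**Figure D3:**
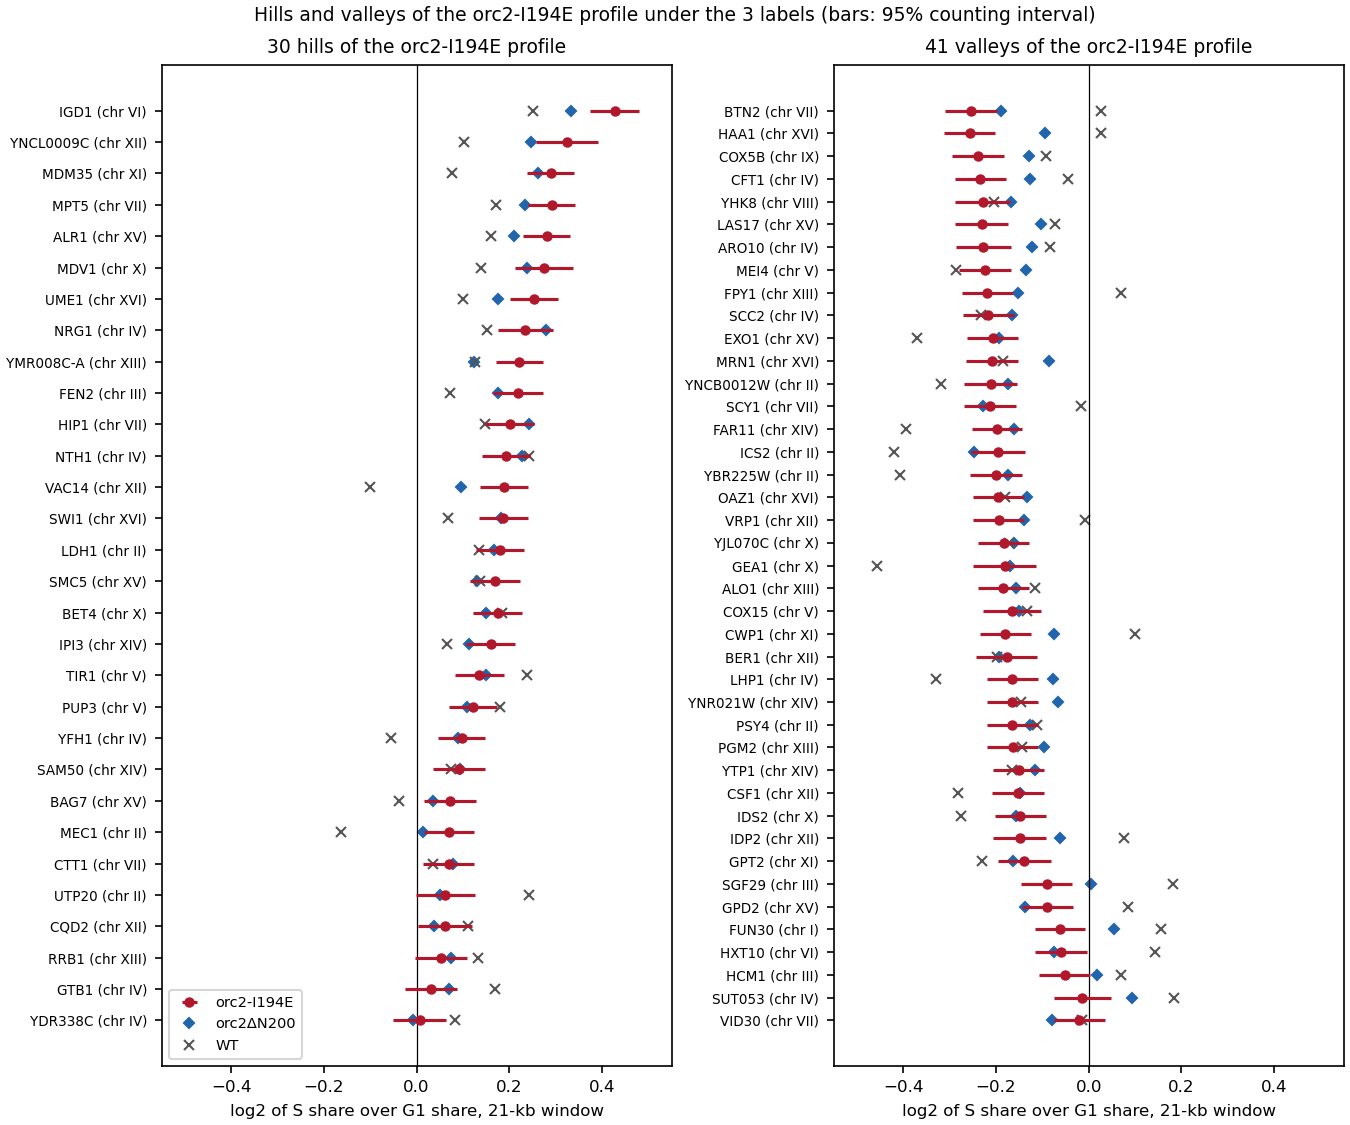
Log2 ratio of S share to G1 share in the 21-kb window at each of the 30 hills (left) and 41 valleys (right) of the orc2-I194E profile, named by the nearest gene; red points with 95% counting intervals are orc2-I194E, blue diamonds orc2ΔN200 and grey crosses WT. At the hills the blue diamonds lie close to the red points and the grey crosses mostly to their left; at the valleys the crosses scatter on both sides of the red points, from 0.18 to -0.46.

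Gained stretches were runs of at least 10 kb at or above 0.15 on the 21-kb running mean, a level that 13.6% of orc2-I194E bins reached. There were 32, which covered 1451 kb and held 774 genes, against 33 and 1212 kb under orc2ΔN200 and 45 and 1553 kb under WT. They ran from 10 to 95 kb with a median of 42.5 kb, on 15 chromosomes, and 13 of them, covering 604 kb, came within 30 kb of an end. The longest lay at 133001 to 228000 on chromosome VI, around IGD1, and spans the centromere. It held 27454 counts in S and 23034 in G1, a ratio of 0.32 (0.29 to 0.35), with 0.29 under orc2ΔN200 and 0.22 under WT.

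The other arm of chromosome VI held the third longest stretch, at 15001 to 92000, highest over YFL040W. It had 24511 counts in S and 20232 in G1, a ratio of 0.34 (0.32 to 0.37), above that of the stretch over the centromere. Here the labels stood far apart, with 0.17 (0.15 to 0.20) under orc2ΔN200 and -0.031 (-0.059 to -0.0026) under WT. With the G1 labels exchanged it had 0.30, and with the S labels exchanged 0.014.

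The 3 other stretches among the longest 5 were 642001 to 729000 on chromosome X (87 kb, over PMT4, a protein mannosyltransferase gene), 123001 to 198000 on chromosome VII (75 kb, MPT5) and 295001 to 367000 on chromosome XI (72 kb, MDM35). Their ratios were 0.26, 0.23 and 0.24 under orc2-I194E, 0.25, 0.20 and 0.21 under orc2ΔN200, and 0.15, 0.064 and 0.082 under WT. In all 32 stretches orc2ΔN200 was above 0, as were 43.4% of its bins, and it reached 0.15 in 24 of them, where 11% of its bins did. WT was above 0 in 25, as were 52.5% of its bins, and reached 0.15 in 8, where 14.7% of its bins did.

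The gained stretches that stood higher under orc2-I194E than under orc2ΔN200 were near the ends of chromosomes, where many gained stretches lay. Intervals put orc2-I194E above orc2ΔN200 in 7 of the 32 (3.38% of all 21-kb windows) and below it in 1 (2.19%). Stretches longer than 21 kb have narrower intervals than such windows, so these shares are a rough guide only. The 7 were those at YFL040W, ATG23, VPS13, PDA1, SWH1, YCR095W-A and YJL213W, named after their values were seen, and each came within 100 kb of an end, 5 of them within 30 kb. Of all 32 gained stretches, 13 came within 30 kb of an end. Among all 21-kb windows, 11.5% of those within 100 kb of an end were above orc2ΔN200 and 0.787% of the others. With the G1 labels exchanged these shares were 6.44% and 1.24%, and with the S labels exchanged 21.2% and 20.2%, so the concentration near ends was found with the S library labelled orc2-I194E.

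Lagging stretches, at or below -0.15 for at least 10 kb, numbered 33 and covered 847 kb, against 26 and 572 kb under orc2ΔN200 and 63 and 2017 kb under WT. That level was reached by 8.91% of orc2-I194E bins, 6.56% of orc2ΔN200 bins and 18.0% of WT bins. It was 18.4% with the S labels exchanged and 6.08% with the G1 labels exchanged. None came within 30 kb of an end. The longest was 799001 to 874000 on chromosome IV (75 kb, around SCC2), with 16008 counts in S and 19103 in G1, or -0.19 (-0.22 to -0.16). The next were at CFT1 on the same chromosome (59 kb, -0.20), EXO1 (an exonuclease gene, chromosome XV, 45 kb, -0.19), PEP5 (vacuolar tethering, chromosome XIII, 44 kb, -0.18) and ARO10 (chromosome IV, 39 kb, -0.17). Chromosome IV held 234 kb of the 847 kb.

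In the lagging stretches, which were chosen as low in orc2-I194E, it lay below WT in 12 (24.2% of all 21-kb windows) and above it in 7 (23.5%) by intervals. It lay below orc2ΔN200 in 6 (2.19%) and above it in none (3.38%). The stretches differ in length from 21-kb windows, so these shares are a rough guide only. The density of tRNA genes did not set the classes of stretch apart, with 24.1 per Mb in gained stretches and 23.6 in lagging ones, against 23.8 over all smoothed bins.

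Chromosome ends were raised under orc2-I194E. Kept bins within 30 kb of an end held 160301 counts in S and 150596 in G1, a ratio of 0.16 (0.15 to 0.17) over 564 bins, against 0.12 (0.11 to 0.13) under orc2ΔN200 and 0.037 (0.027 to 0.047) under WT. In classes of 10 kb the orc2-I194E value was 0.19 next to the end, 0.15 at 30 to 40 kb, 0.070 at 60 to 70 kb and 0.012 at 90 to 100 kb. Beyond 100 kb from the ends it was -0.032 over 8550 bins. Pooled over all chromosomes, the raised DNA thus reached inward by most of 100 kb. At 50 to 90 kb the value was 0.071, against 0.047 under orc2ΔN200 and 0.055 under WT. The short chromosomes I, III and VI, which were high as a whole (0.095, 0.12 and 0.24), lie largely within 100 kb of an end. Their part in this reach was not tested. Of the bins within 30 kb of an end, 36.2% stood above 0.2 on the 5-kb running mean and 0 below -0.2, against 9.39% and 5.26% of all bins. Under orc2ΔN200 25.9% of these bins stood above 0.2, and under WT 8.72%.

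The value at the ends moved with the S library used. It was 0.14 with the G1 labels exchanged and 0.058 with the S labels exchanged. The G1 library of orc2-I194E was itself slightly low at the ends, with a ratio of -0.024 (-0.034 to -0.014) to that of orc2ΔN200 and -0.021 (-0.032 to -0.011) to that of WT, which raises the ratio of S to G1 by that much.

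Single ends differed widely. Of the 32 ends, 30 had enough kept bins for a value, and 28 of these were above 0 under orc2-I194E, 26 of them with the interval above 0 (26.5% of all 21-kb windows). These ends held 7 to 29 kept bins, so the shares of 21-kb windows set beside them here and below are a rough guide only. The left end of chromosome X was highest, with 3059 counts in S and 2387 in G1 over 9 bins, a ratio of 0.42 (0.35 to 0.50). It had 0.24 (0.17 to 0.32) under orc2ΔN200 and -0.020 (-0.10 to 0.060) under WT. The right end of chromosome V followed, with 8002 and 6530 counts and 0.36 (0.31 to 0.41), against 0.26 under orc2ΔN200 and 0.11 under WT. The left end of VI (0.34), the right end of XIII (0.32) and the left end of III (0.30) came next.

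The order of the 3 labels was not the same at each end. At the right end of XIII orc2ΔN200 was higher than orc2-I194E, at 0.37, and WT stood at 0.26. The left end of chromosome V was the lowest, with 4983 counts in S and 5543 in G1, or -0.087 (-0.14 to -0.031), where orc2ΔN200 had -0.029 and WT 0.089. The right end of VI (-0.0072) and the left end of IV (0.016) were near the genome mean. Over all 30 ends, intervals put orc2-I194E above WT at 16 (23.5% of all 21-kb windows) and below it at 2 (24.2%). They put it above orc2ΔN200 at 3 (3.38%) and below it at none (2.19%).

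The highest 21-kb means of several chromosomes were near ends, where the ground on the outer side, as far as bins were kept, did not fall far enough for the prominence of a hill. No bin was kept within 30 kb of the right end of chromosome I, so how far the ground falls outward there is not known. They were singled out for their values. The highest of the genome, at 193001 on chromosome I over SWH1, an oxysterol-binding protein gene, held 3339 counts in S and 2539 in G1 over 12 bins, a ratio of 0.46 (0.39 to 0.54), against 0.28 under orc2ΔN200 and 0.21 under WT. Under these 2 labels 14 bins were kept in the window. With the S labels exchanged the SWH1 window had 0.39, and with the G1 labels exchanged 0.29, so its height depended on the G1 library used as well. At PDA1, a pyruvate dehydrogenase gene at 547001 on chromosome V, the ratio was 0.42 (0.37 to 0.47), against 0.27 and 0.11. At YJL213W, at 32001 on chromosome X, it was 0.36 (0.31 to 0.42), against 0.18 and -0.043.

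Centromeres, in contrast, were close to the genome mean. Bins within 20 kb of a centromere held 167080 counts in S and 171003 in G1, a ratio of 0.033 (0.024 to 0.043) over 632 bins, against 0.059 (0.049 to 0.069) under orc2ΔN200 and 0.17 (0.16 to 0.18) under WT. By distance the orc2-I194E value lay between 0.023 and 0.050 in each 10-kb class out to 50 kb, with no rise towards the centromere, whereas WT had 0.19 in the first class. Above 0.2 stood 9.95% of the centromeric bins, close to the 9.39% of all bins. This was 11.7% under orc2ΔN200 and 40.3% under WT. Exchanging the G1 labels gave 0.041 and exchanging the S labels 0.17.

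**Figure D4:**
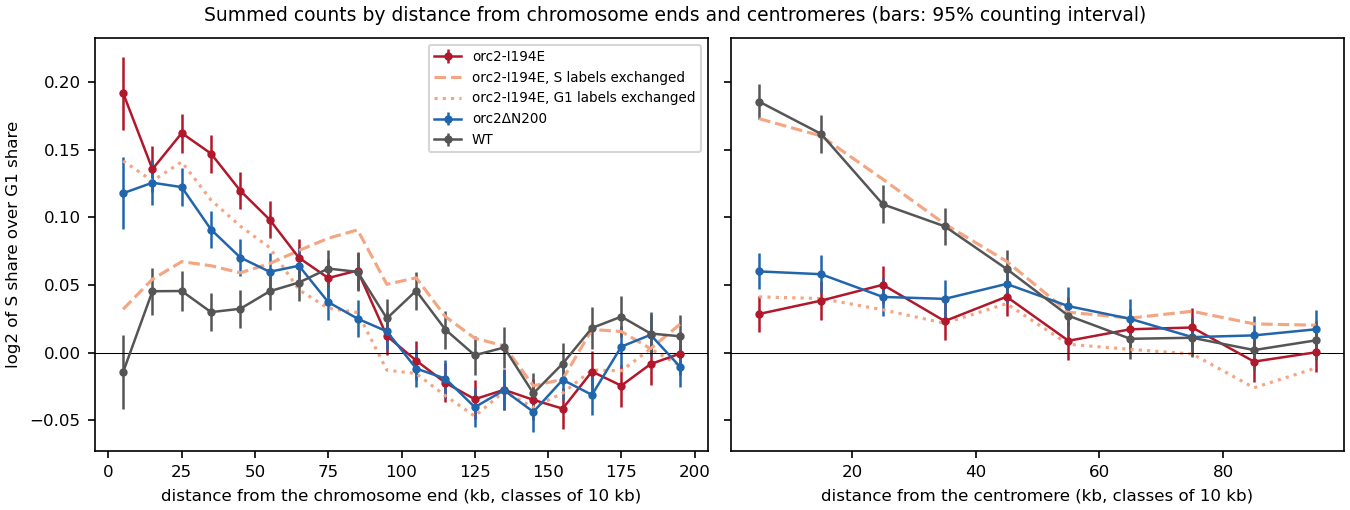
Log2 ratio of summed counts in classes of 10 kb by distance from the chromosome end (left, to 200 kb) and from the centromere (right, to 100 kb), with 95% counting intervals, under orc2-I194E (red), orc2ΔN200 (blue) and WT (grey), and with the S labels (dashed) or the G1 labels (dotted) of orc2-I194E and WT exchanged. The red curve falls from 0.19 at the end to 0.012 at 90 to 100 kb and is flat around the centromere, where the grey and dashed curves rise to between 0.17 and 0.19.

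The 16 centromeres split into a few high ones and a majority near or below 0. Chromosome VI was highest, with 10687 counts in S and 8972 in G1, a ratio of 0.32 (0.28 to 0.36), against 0.24 under orc2ΔN200 and 0.20 under WT. Chromosomes IV (0.16) and I (0.16) followed, where WT had 0.23 and 0.24. The lowest were XVI, with 9863 and 11099 counts and -0.10 (-0.14 to -0.064), VII (-0.074) and III (-0.056). WT had 0.027, 0.17 and 0.19 at these 3, and orc2ΔN200 had 0.0020, 0.0041 and -0.017. Intervals put orc2-I194E below WT at 13 centromeres (24.2% of all 21-kb windows) and above it at 1 (23.5%), that of chromosome VI. They put it below orc2ΔN200 at 3 (2.19%), those of V, VII and XVI. These regions held 32 to 43 kept bins under orc2-I194E, more than a 21-kb window. Their intervals are narrower, so the shares of windows are a rough guide only. As labelled, 10 of the 16 were above 0 under orc2-I194E (40% of all 21-kb windows). With the S labels exchanged 15 were (53.3%), and with the G1 labels exchanged 10 (40.2%).

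Among whole chromosomes, VI stood out under orc2-I194E. It held 73386 counts in S and 65191 in G1, a ratio of 0.24 (0.22 to 0.25), and 0.26 beyond 50 kb from its ends. The chromosome is 271 kb long, so much of the DNA beyond 50 kb still lies within 100 kb of an end. Whether its ends made the value was not tested. The whole chromosome had 0.16 under orc2ΔN200 and 0.086 under WT. Chromosomes III (0.12), I (0.095) and X (0.068) came next, and IX (-0.057) and IV (-0.045) were lowest. Chromosome IX was on the other side of the mean in WT, at 0.090 (0.078 to 0.10). Its log2 ratio beyond 50 kb from the ends was -0.086 under orc2-I194E, and it held no hill. With the S labels exchanged VI had 0.12 and IX 0.073, so the direction of IX turned, and with the G1 labels exchanged they had 0.21 and -0.040.

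Short chromosomes had gained more in general, but less uniformly than in WT. Across the 16 chromosomes the correlation of the value with log2 length was -0.72 under orc2-I194E, -0.77 under orc2ΔN200 and -0.89 under WT, and beyond 50 kb from the ends it was -0.60, -0.66 and -0.92. All chromosomes of a label come from the same 2 libraries, so these are descriptions. With the S labels exchanged the first value was -0.96, and with the G1 labels exchanged it was -0.59.

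**Figure D5:**
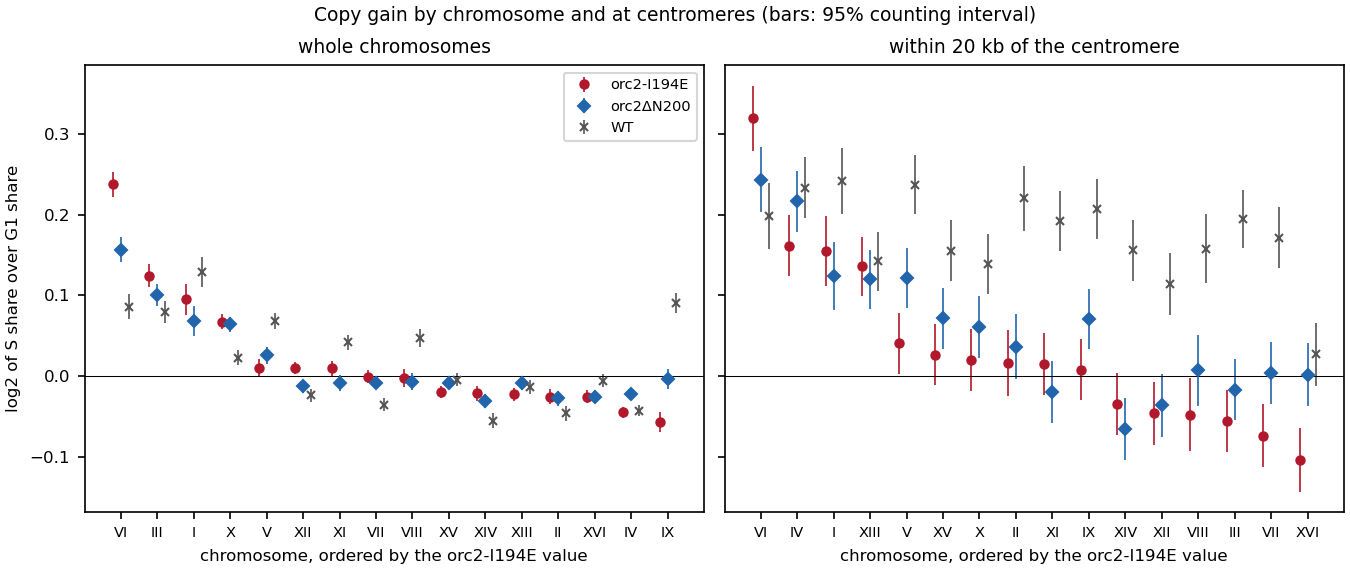
Log2 ratio of S share to G1 share over whole chromosomes (left) and within 20 kb of the centromere (right), with 95% counting intervals, under orc2-I194E (red circles), orc2ΔN200 (blue diamonds) and WT (grey crosses), chromosomes ordered by the orc2-I194E value. Chromosome VI is highest under orc2-I194E in both panels (0.24 and 0.32), and at most centromeres the grey crosses stand above the red circles.

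Lists of genes were read in windows of 5 kb around each gene, where 42.7% of orc2-I194E bins were above 0. TRP1, which lies beside the origin ARS1 on chromosome IV, had 1540 counts in S and 1416 in G1, a ratio of 0.19 (0.083 to 0.29), against 0.23 under orc2ΔN200 and 0.29 under WT. It was the landmark of an origin in these lists and stood clear of the genome mean under all 3 labels. It also lies within 20 kb of the centromere of chromosome IV, in the gained stretch from 444001 to 471000. The origin's own part in its value cannot be told apart.

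The 8 core histone genes, which lie in 4 pairs and share windows within a pair, stood near the mean under orc2-I194E. Of them 6 were above 0 and no interval excluded 0, with a median of 0.037 where all bins had -0.026. Under orc2ΔN200 all 8 were above 0 (44.7% of 5-kb windows), 3 by the interval (18.6%), with a median of 0.088. Under WT all 8 were above 0 (53.3%), and all by the interval (26.1%), with a median of 0.18. HTA2 and HTB2, which encode H2A and H2B and lie near the centromere of chromosome II, had 0.020 and 0.051 under orc2-I194E, against 0.25 and 0.26 under WT.

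Of the 14 genes of the pre-replicative complex, the ORC, MCM, CDC6 and TAH11 (Cdt1) genes, 4 were above 0 and 10 below under orc2-I194E, with a median of -0.033. Intervals lay above 0 for 3 (19.8% of all 5-kb windows): MCM7 (0.15), ORC6 (0.13) and ORC2 (0.19), whose window holds the extra copies described above. The interval of MCM2 (-0.19) lay below 0 (22.1% of windows). Under WT 8 were above 0, and 5 intervals lay above and 4 below it. Members differed from WT in both directions. MCM3 had -0.030 under orc2-I194E against 0.26 under WT, and ORC1 -0.090 against 0.21, while MCM5 had -0.036 against -0.28, and MCM4 -0.0099 against -0.23.

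Of the 12 marker and mating genes, 8 were above 0 and 5 by the interval (19.8% of all 5-kb windows) under orc2-I194E. They included TRP1 and LEU2 (0.39), whose window holds the extra copies described above. The others were ADE1 (an adenine biosynthesis gene on chromosome I) at 0.25 and the silent mating cassettes at both ends of chromosome III. HMLALPHA1, 13.5 kb from the left end, had 817 counts in S and 654 in G1 over only 3 kept bins, or 0.39 (0.24 to 0.54), against 0.22 under orc2ΔN200 and 0.072 under WT. HMRA1, 21.7 kb from the right end, had 1418 and 1247 counts, or 0.25 (0.14 to 0.36), against 0.19 and -0.053. MATALPHA1, at the mating-type locus of the same chromosome in the reference genome, had 0.097 (-0.065 to 0.26), also over 3 kept bins. Parts of the HML, HMR and MAT loci are copies of each other, so counts there can be shared between them.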

How the data were processed

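The deposited files give whole-number counts per 1-kb bin, with no scaling by the authors. Per the submitters' processing notes, Bowtie2 2.5.3, Picard 2.27.5, SAMtools 1.18, bedtools 2.31.0, R 4.3.0 and the build sacCer3 were used. Their roles, filters and treatment of duplicates are not given in the sources used here. Library totals were 3235720 to 3376203. From these counts, shares over kept bins, log2 ratios, running means, hills, valleys and stretches were computed in Python 3.11.15 (SciPy 1.17.1, pandas 2.3.3, numpy 2.4.6), with plots drawn by matplotlib 3.10.9. Summed counts have exact Clopper-Pearson intervals and copy levels exact Poisson intervals, at 95%. The steps were checked on simulated data. With 1 library a side no test was made. Gene names and centromere positions (between the innermost genes of both arms) came from a RefSeq gene table of R64, the assembly of sacCer3, with 6431 nuclear genes. It names no origins, and no genome sequence was used, so origins and their consensus sequence were not analysed here.

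Genes were named by a rule: nearest to the 15 highest hills, 10 deepest valleys, 5 longest stretches of each kind, and ends and centromeres by their rank (5 highest and 3 lowest ends, 3 highest and 3 lowest centromeres), plus ORC2, LEU2, TRP1 and the lists. The profile, settings and lists were chosen with earlier results of these data known. Alternatives changed the denominator, the filter, the centring, the smoothing, the thresholds and the labels.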

Additional observations from a re-analysis of the deposited data

Results flagged for a closer look

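The results here were picked out because the orc2-I194E value and the WT value lay on opposite sides of 0, each with a counting interval that excluded 0. With 1 library per label and time, none of these differences was tested. All hills, valleys, ends, centromeres, stretches, chromosomes and listed genes were looked through. The share of all windows that meet this rule was not computed, so the counts below cannot be judged against it. The ORC2 bin had 0.44 under orc2-I194E and -0.80 under WT, and the LEU2 bin had 0.58 under orc2-I194E and -0.37 under WT.

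Of the 30 hills, 3 met this, VAC14 (0.19 in orc2-I194E, -0.10 in WT), YFH1 (0.097 in orc2-I194E, -0.055 in WT) and MEC1 (0.069 in orc2-I194E, -0.16 in WT). With the S labels exchanged these 3 had -0.12, -0.084 and -0.057. With the G1 labels exchanged VAC14 and YFH1 had 0.21 and 0.13, but MEC1 had -0.037, so its sign opposite to WT was seen only as labelled. Of the 41 valleys, 7 did: FPY1 (-0.22 in orc2-I194E, 0.069 in WT), CWP1 (-0.18 in orc2-I194E, 0.099 in WT), IDP2 (-0.15 in orc2-I194E, 0.075 in WT), SGF29 (-0.091 in orc2-I194E, 0.18 in WT), GPD2 (-0.089 in orc2-I194E, 0.084 in WT), FUN30 (-0.062 in orc2-I194E, 0.16 in WT) and HXT10 (-0.060 in orc2-I194E, 0.14 in WT). Hills and valleys were chosen on orc2-I194E, which fixes its side in most of them.

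Of the 30 ends, 4 were high under orc2-I194E and low under WT, the right end of III (0.28 in orc2-I194E, -0.12 in WT) and the left ends of I (0.23 in orc2-I194E, -0.089 in WT), VIII (0.15 in orc2-I194E, -0.065 in WT) and XIV (0.091 in orc2-I194E, -0.21 in WT). The left end of V was the other way round (-0.087 in orc2-I194E, 0.089 in WT). Of the 16 centromeres, 4 were low under orc2-I194E and high under WT, those of XII (-0.046 in orc2-I194E, 0.11 in WT), VIII (-0.048 in orc2-I194E, 0.16 in WT), III (-0.056 in orc2-I194E, 0.19 in WT) and VII (-0.074 in orc2-I194E, 0.17 in WT). Among whole chromosomes, XII (0.010 in orc2-I194E, -0.024 in WT) and IX (-0.057 in orc2-I194E, 0.090 in WT) met it.

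The gained stretches were those at YFL040W (0.34 in orc2-I194E, -0.031 in WT), YCR095W-A (0.26 in orc2-I194E, -0.11 in WT), STP3 (0.17 in orc2-I194E, -0.18 in WT), VAC14 (0.20 in orc2-I194E, -0.15 in WT) and YAL067W-A (0.26 in orc2-I194E, -0.18 in WT). The lagging stretches were those at GLO2 (-0.17 in orc2-I194E, 0.12 in WT), FPY1 (-0.20 in orc2-I194E, 0.063 in WT) and CWP1 (-0.21 in orc2-I194E, 0.11 in WT).

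Counts outside the profile were looked at as well. The rDNA array had a log2 ratio of S to G1, against kept nuclear bins, of 0.30 under orc2-I194E, 0.26 under orc2ΔN200 and -0.067 under WT. The mitochondrial genome had 0.033 under orc2-I194E, 0.24 under orc2ΔN200 and -0.23 under WT.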

How the results depend on the processing

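Of 78 values recomputed under other settings, 55 stayed within limits (a count or a length within 1.5 times the reported one, a ratio or level within its counting interval) and 23 moved. The log2 ratios among these values were pooled over all ends or all centromeres, or were medians over hills or valleys, and none changed sign. Single windows, ends and chromosomes were not among the 78. Some of them changed sign when the S labels were exchanged, as did VAC14, HAA1 and chromosome IX. The hill at MEC1 changed sign with either exchange. No paired analysis was possible because each label had 1 library per time. Exchanging the S labels gave 1590 bins below -0.2, 67 hills, 70 valleys, 2091 kb in lagging stretches, 0.058 at ends and 0.17 at centromeres, so these follow the S library used. Exchanging the G1 labels gave 0.14 at ends and 510 kb in lagging stretches. The sum of the 3 G1 libraries as denominator gave 396 bins below -0.2 and 0.14 at ends. Centring on the median bin gave 0.17 at ends and 0.048 at centromeres. An 11-kb running mean gave 340 bins below -0.2 and 49 hills, and a prominence of 0.3 gave 13 hills and 25 valleys. Thresholds of 0.1 and 0.2 gave 2210 and 880 kb in gained and 2423 and 78 kb in lagging stretches, by construction. Ends taken to 50 kb had 0.14. The 40 hills called on even bins had a median height of 0.086 on odd bins. The ORC2 level in S relative to the library median was 2.42. Where no construction is named, the cause was not tested. Leaving out the ORC2 and LEU2 bins, an alternative chosen after seeing the data, moved no value beyond these limits. At this depth the interval of a 21-kb window was about as wide as that of ALR1, 0.23 to 0.33, so differences between labels well inside that width were not detectable.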
